A study of Canis lupus familiaris with 10 samples.

Results

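Transcripts of the nuclear genes for oxidative phosphorylation were compared between glaucomatous and healthy canine retina. The members were all probe sets of the array whose annotation names a single gene with a symbol that begins with NDUF, UQCR or ATP5, that is COX4 to COX8 with a suffix, or that is SDHA, SDHB, SDHC, SDHD or CYC1. This gave 140 of the 42924 probe sets that are not array controls, for 71 genes. Neural retina was obtained from 1 eye each of 5 dogs with advanced primary glaucoma and of 5 healthy dogs, with 1 Affymetrix Canine genome 2.0 array per dog. By the labels, the glaucomatous retinas came from Shiba Inus of 5 and 14 years (replicates 1 and 2), Basset Hounds of 5 and 7 years (replicates 3 and 4) and a Dalmatian of 9 years (replicate 5). The ages of the older Shiba Inu and of the Dalmatian differ between the labels and the study's own account, and those of the labels were used. All 5 healthy dogs, called controls here, were Beagles of 4 years, so that disease cannot be told apart from breed or age between the groups. The glaucoma dogs were patients whose eyes were enucleated and which had received topical medication to lower the intraocular pressure, whereas the controls were euthanized for unrelated reasons.

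Oxidative phosphorylation makes most of the ATP of a neuron. Complexes I and II pass electrons from NADH and succinate to ubiquinone, complex III passes them on to cytochrome c, and complex IV transfers them to oxygen. The protons that complexes I, III and IV pump across the inner mitochondrial membrane drive complex V, the ATP synthase. In the retina, mitochondria are dense in the inner segments of photoreceptors, in synaptic layers and in the unmyelinated axons of ganglion cells. Some subunits are encoded by the mitochondrial genome, and none of those was measured here.

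Whole-retina RNA was measured, and in such samples fewer cells of a type cannot be told apart from less RNA per cell. Values are log2 RMA intensities, and the differences given are glaucoma mean minus control mean. Median intensity was 77.1 to 80.7 per array. Glaucoma replicate 1, from the younger Shiba Inu, stood apart: the median over 17 rod photoreceptor markers lay -2.89 from the control mean there, against -0.60 to 0.08 in the other 4 glaucomatous retinas. It also held the most signal of pigment epithelium markers, with a median deviation of 2.78 over 13 genes, and control replicate 4 was next with 1.72. Results are therefore also given without these retinas where that changed a count.

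Each of the 5 complexes held genes with lower transcript levels in the glaucomatous retina, and the differences were small. Of the 71 genes, 70 reached a log2 above 7 with some probe set in at least 2 retinas and were tested, each gene by its brightest probe set. COX6A2, a heart and muscle isoform, lay at or below 7 in all 10 samples and was not tested. Of the 70 tested genes, 18 (25.7%) were lower in glaucoma (limma, adjusted p under 0.05), 0 were higher and 52 did not pass. The 18 include COX4I2, which passed the filter only through the controls. Among all 7900 tested genes, 8.65% were called lower and 8.04% higher, and 9.69% of the 1631 with a mean log2 above 10 were called lower. A lower mean, whatever the p, was found for 66 of the 70 and for 50.9% of all tested genes. At an unadjusted p under 0.05, limma placed 35 of the 70 genes lower and 0 higher, against 17.0% of all tested genes lower and 15.2% higher. The median difference of the 70 genes was -0.25, or -16.1% on the linear scale, against -0.01 for all tested genes and -0.07 for those with a mean log2 above 10. None of the 70 reached a 2-fold change, and they ranged from -0.97 to 0.04. In 22 of the 70, or 31.4%, every glaucomatous retina lay below every control, against 7.84% of all tested genes and 11.1% of those with a mean above 10.

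The share of members called came close to that of all genes without some single retinas, while the median shift stayed. With each sample left out in turn, 5 to 20 genes were called and the median stayed between -0.29 and -0.23. Without glaucoma replicate 5 or control replicate 2, 5 of 70 (7.14%) were called lower, against 6.02% and 5.48% of all genes tested in those fits. The count was 7 (against 5.79% of all genes) without control replicate 5, 8 (11.4%, against 6.19%) without control replicate 4 and 11 (15.7%, against 7.21%) without glaucoma replicate 4. Without glaucoma replicate 1, 13 were called (18.6%, against 9.49%). NDUFV2, SDHA and NDUFA4 were called in all 10 of these fits, as was COX4I2, which passed the filter only through the controls.

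**Figure D1:**
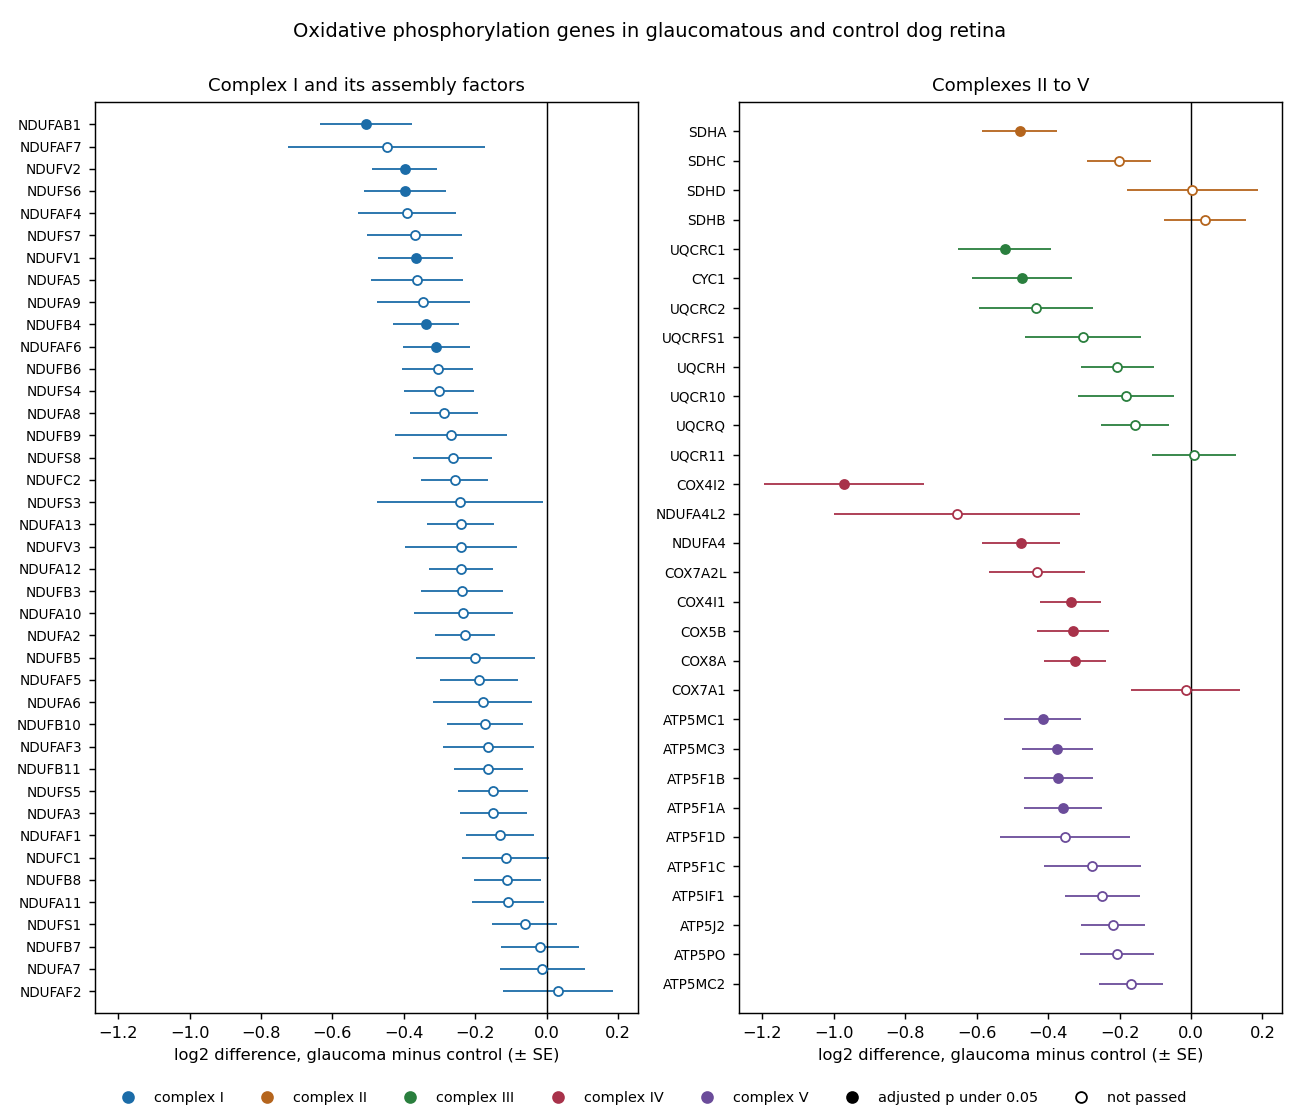
Difference of mean log2 intensity, glaucoma minus control, with its standard error for the 70 tested oxidative phosphorylation genes, coloured by complex, with filled points for the 18 genes at an adjusted p under 0.05. Of the 70 points, 66 lie to the left of 0, and those near 0 include SDHB, SDHD, UQCR11 and COX7A1.

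Complex I, the NADH dehydrogenase, contributed 40 tested genes with a median difference of -0.24. Of these, 6 were lower (15.0%, against 8.65% of all tested genes) and 34 did not pass. All but NDUFAF2 had a lower mean in glaucoma. The 6 genes of its catalytic core had a median of -0.32 with 2 called (33.3%). For the 27 accessory subunits the median was -0.24 with 3 called (11.1%). For the 7 assembly factors it was -0.19 with 1 called (14.3%). The shares called among accessory subunits and assembly factors lie near that of all tested genes.

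NDUFV2, an iron-sulfur subunit of the NADH-oxidizing module, measured 11.02, 10.84, 10.96, 10.71 and 10.89 in glaucoma replicates 1 to 5. Control replicates 1 to 5 measured 11.22, 11.28, 11.24, 11.37 and 11.30. All glaucomatous retinas lay below all controls, and here glaucoma replicate 4 was lowest rather than replicate 1. The difference was -0.40 ± 0.09 (SE, n = 5 per group), with an adjusted p of 0.0129 in limma. Its partner NDUFV1, which binds NADH, also fell without overlap, by 0.37 (adjusted p = 0.034 in limma), although its second probe set, at -0.18, did not pass. NDUFS1, the largest subunit of the same module, differed by -0.06 (adjusted p = 0.676 in limma), and its 4 probe sets ran from -0.66 to -0.06 with none called.

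Among the accessory subunits, NDUFAB1 showed the largest difference. This acyl carrier protein of mitochondrial fatty acid synthesis is also a part of complex I. Glaucoma replicates 1 to 5 measured 10.68, 11.12, 11.14, 11.34 and 10.92, and control replicates 1 to 5 measured 11.67, 11.63, 11.41, 11.57 and 11.44. The groups did not overlap, with glaucoma replicate 1 lowest and replicate 4 only 0.07 below the lowest control. The difference was -0.51 ± 0.13 (SE, n = 5 per group; adjusted p = 0.0217 in limma). NDUFS6 fell by 0.40 and NDUFB4, a membrane arm subunit, by 0.34, the latter without overlap between the groups. Among the assembly factors, which help to build complex I and are absent from the finished enzyme, NDUFAF6 fell by 0.31. NDUFAF7 and NDUFAF4 had larger differences of -0.45 and -0.39 that did not pass (adjusted p = 0.29 and 0.076 in limma), and NDUFAF7 was above the minimum in only 2 of the 5 glaucomatous retinas.

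Complex II, the succinate dehydrogenase, was uneven. SDHA, the flavoprotein that oxidizes succinate and a member of the tricarboxylic acid cycle as well, was lower, while the other 3 subunits did not pass. SDHA measured 11.22, 11.38, 11.46, 11.47 and 11.12 in glaucoma replicates 1 to 5, against 11.64, 11.82, 11.78, 11.95 and 11.86 in control replicates 1 to 5. The groups were separate, with 0.16 between the highest glaucomatous retina and the lowest control. Its difference of -0.48 ± 0.11 (SE, n = 5 per group) had the smallest adjusted p of the 70 genes, 0.0109 in limma. SDHC, a membrane anchor, lay lower in every glaucomatous retina than in any control, at -0.20, but did not pass (adjusted p = 0.143 in limma). SDHB, the iron-sulfur subunit that docks on SDHA, differed by 0.04 with a 95% interval of -0.21 to 0.29. SDHD, the other anchor, differed by 0.00 with an interval of -0.40 to 0.41, so that a fall as large as that of SDHA lies outside the interval of SDHB and also outside that of SDHD. The differences between the subunits were not tested.

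In complex III, the cytochrome bc1 complex, 2 of 8 genes were lower, against 8.65% of all tested genes. The median difference was -0.26. UQCRC1, a core protein on the matrix side, measured 12.06, 12.63, 12.53, 12.51 and 12.13 in glaucoma replicates 1 to 5. Control replicates 1 to 5 measured 12.80, 12.82, 12.82, 13.00 and 13.03. Replicates 1 and 5 were far lower than the other glaucomatous retinas, and no glaucomatous retina reached the controls. The difference was -0.52 ± 0.13 (SE, n = 5 per group; adjusted p = 0.0204 in limma). CYC1, the cytochrome c1 that hands electrons to cytochrome c, fell by 0.47 (adjusted p = 0.0396 in limma), with glaucoma replicate 2 at 9.96 above control replicate 1 at 9.84. UQCRC2, the partner of UQCRC1, differed by -0.43 and did not pass (adjusted p = 0.0881 in limma), whereas a second, dimmer probe set for it fell by 0.97 (adjusted p = 0.00285 in limma).

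In complex IV, the cytochrome c oxidase, 5 of 8 tested genes were lower (62.5%, against 8.65% of all tested genes). The median was -0.39, the largest of the 5 complexes. The 8 include COX7A2L, which is not a subunit of the enzyme, and isoforms of restricted tissue distribution. Of these isoforms, COX4I2 is among the 5 called, and it passed the filter only through the controls. The 4 general subunits among the members (COX4I1, COX5B, COX8A and NDUFA4, which is named for complex I but belongs to complex IV) were all lower. Their median was -0.33, against -0.32 for complex V. Other general subunits, such as COX6A1, COX6B1, COX7A2 and COX7B, had no probe set among the members and were not measured here. COX4I1, the regulatory subunit that binds ATP, measured 12.88, 13.01, 13.11, 13.11 and 12.98 in glaucoma replicates 1 to 5, and 13.37, 13.36, 13.40, 13.37 and 13.28 in control replicates 1 to 5. The controls were tightly grouped (SD 0.05) and lay above all glaucomatous retinas. The difference was -0.34 ± 0.09 (SE, n = 5 per group; adjusted p = 0.0207 in limma), and a second probe set at -0.31 did not pass (adjusted p = 0.067 in limma).

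NDUFA4 measured 11.83, 12.10, 12.06, 12.05 and 11.71 in glaucoma replicates 1 to 5, and 12.50, 12.56, 12.24, 12.38 and 12.46 in control replicates 1 to 5. Glaucoma replicate 5 was lowest, and the groups did not overlap. NDUFA4 differed by -0.48 ± 0.11 (SE, n = 5 per group; adjusted p = 0.014 in limma), and its second probe set was also called. COX8A fell by 0.32 without overlap, but none of its other 3 probe sets passed (-0.29 to -0.11). COX5B, a zinc-binding subunit, fell by 0.33, with control replicate 3 at the level of the highest glaucomatous retina.

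The isoforms of restricted tissue distribution were not alike. COX4I2, the alternative form of COX4I1 known from lung and smooth muscle, had the largest difference of the family, -0.97 ± 0.22 (SE, n = 5 per group; adjusted p = 0.0135 in limma). Glaucoma replicates 1 to 5 measured 5.94, 6.03, 7.00, 5.83 and 6.25, and control replicates 1 to 5 measured 6.82, 7.32, 7.20, 7.00 and 7.58. These levels lie around the minimum of 7, which was exceeded in 1 glaucomatous retina and 4 controls, so COX4I2 was tested only because the controls were above it. A second COX4I2 probe set, below the minimum and not tested, differed by 0.13. NDUFA4L2, a paralog of NDUFA4 that is induced by hypoxia, differed by -0.66 and did not pass (adjusted p = 0.215 in limma). Its glaucomatous values ran from 6.30 in replicate 1 to 8.62 in replicate 3, on either side of the controls at 7.82 to 8.59. COX7A1, the muscle form of subunit 7a, differed by -0.02 with a 95% interval of -0.35 to 0.32. COX7A2L, a related protein that joins complexes III and IV into supercomplexes, differed by -0.43 and narrowly missed the threshold (adjusted p = 0.0503 in limma).

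**Figure D2:**
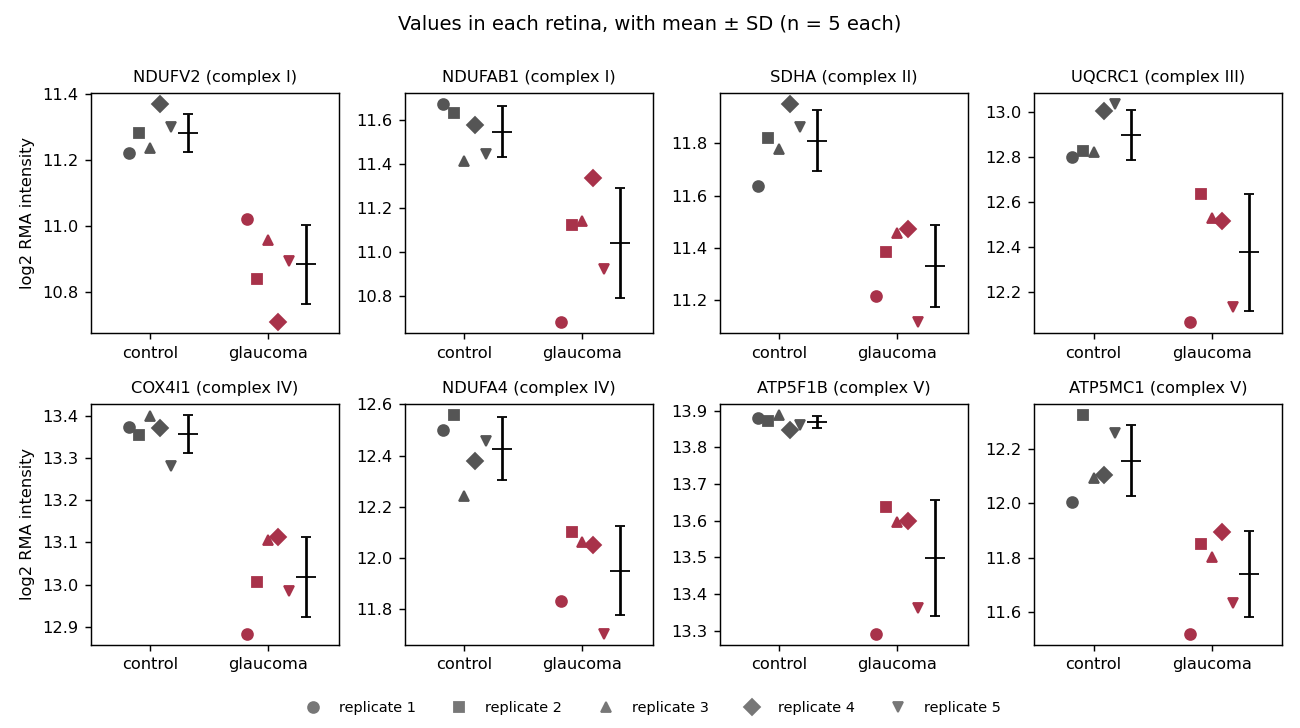
Log2 RMA intensity of 8 genes in each retina, controls in grey and glaucoma in red, with a symbol per replicate and the mean ± SD of 5 retinas beside the points; the vertical axes differ and do not start at 0. All 8 are called genes in which the 5 glaucomatous retinas lie below the 5 controls. Called genes whose groups overlap, such as CYC1 and COX5B, are not shown. Of the 70 tested genes, 22 had no overlap (31.4%, against 7.84% of all tested genes). Glaucoma replicate 1 or 5 holds the lowest value in 7 of the 8 panels.

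Complex V, the ATP synthase, had 4 of 10 genes lower (40.0%, against 8.65% of all tested genes). Its median difference was -0.32, and all 10 means were lower. ATP5F1B, the catalytic beta subunit, measured 13.29, 13.64, 13.60, 13.60 and 13.36 in glaucoma replicates 1 to 5. Control replicates 1 to 5 measured 13.88, 13.87, 13.89, 13.85 and 13.86, an SD of 0.02. The controls were nearly identical, and the glaucomatous retinas fell into a lower pair, replicates 1 and 5, and 3 retinas closer to the controls. The difference was -0.37 ± 0.10 (SE, n = 5 per group; adjusted p = 0.0236 in limma), and its second probe set was also called. ATP5F1A, the alpha subunit, fell by 0.36 (adjusted p = 0.045 in limma), and its second tested probe set, at -0.37, did not pass (adjusted p = 0.112 in limma).

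The ring of c subunits in the membrane is encoded by 3 genes for the same mature protein. ATP5MC1 fell by 0.42 (adjusted p = 0.0242 in limma), with every glaucomatous retina below every control. ATP5MC3 measured 12.13, 12.27, 12.39, 12.47 and 12.18 in glaucoma replicates 1 to 5, against 12.67, 12.74, 12.56, 12.78 and 12.58 in control replicates 1 to 5. Its groups did not overlap either, with glaucoma replicate 1 again lowest, and the difference was -0.37 ± 0.10 (SE, n = 5 per group; adjusted p = 0.0258 in limma). ATP5MC2, at -0.17, did not pass but also showed no overlap between the groups. ATP5IF1, the inhibitor that keeps the synthase from hydrolyzing ATP, differed by -0.25 (adjusted p = 0.132 in limma). ATP5F1D and ATP5F1C, further subunits of the synthase, differed by -0.35 and -0.28 without passing (adjusted p = 0.204 and 0.186 in limma).

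Each glaucomatous retina showed the shift, to a different degree. The median deviation of the 70 genes from the control mean was -0.39, -0.20, -0.22, -0.17 and -0.33 in glaucoma replicates 1 to 5, against -0.06 to 0.05 in the controls. The mean over the glaucomatous retinas was -0.26 ± 0.09 (SD, n = 5). Replicates 1 and 5 were lowest, and all 5 lay below every control. In replicates 1 to 5, respectively 56, 40, 42, 37 and 53 of the 70 genes lay below the lowest control. The shares of all tested genes were 35.6%, 29.6%, 21.4%, 26.0% and 34.4%, and of those with a mean log2 above 10 they were 43.6%, 30.6%, 24.9%, 28.4% and 42.9%. Replicates 1 and 5 had the highest shares in all 3 sets. Replicate 1 held the lowest glaucomatous value in 38 of the 70 genes. The median over all tested genes stayed at -0.04 to 0.02 in the same retinas. By complex, the retinas were least alike for complex III, from -0.56 in replicate 1 to 0.01 in replicate 4, and complex IV was between -0.53 and -0.26 in all 5.

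**Figure D3:**
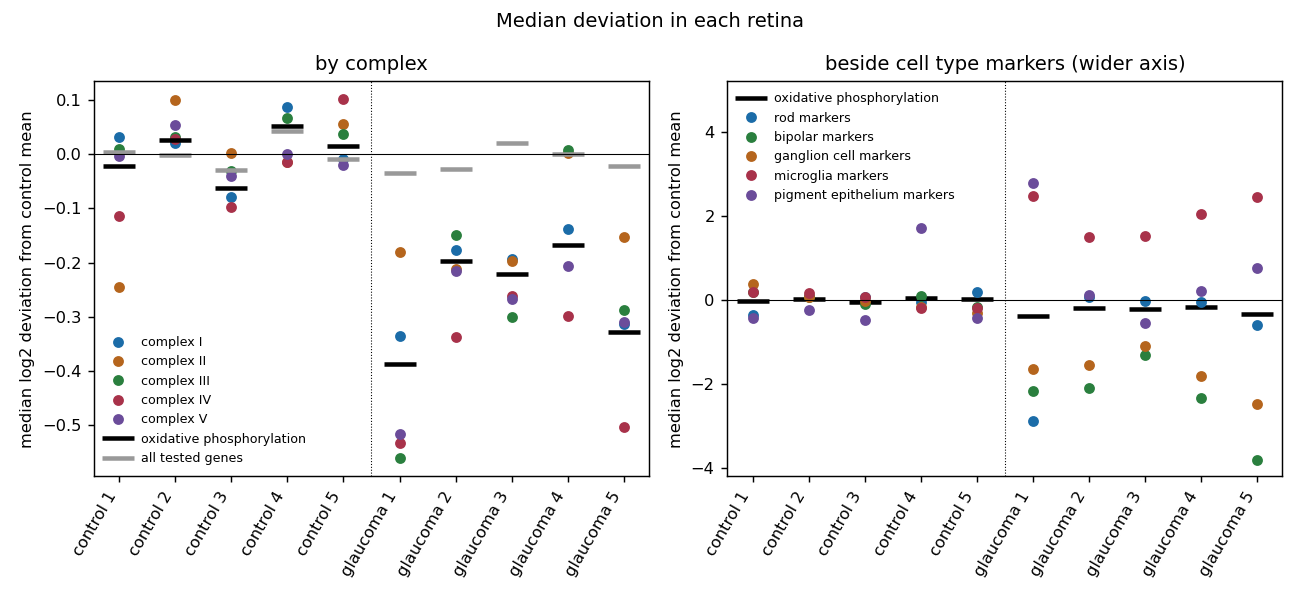
Median log2 deviation from the control mean in each retina, on the left for each complex (points), the 70 oxidative phosphorylation genes (black bars) and all tested genes (grey bars), and on the right for cell type markers beside the same black bars on a wider axis. The black bars lie between -0.39 and -0.17 in glaucoma, and rod markers lie at -2.89 in glaucoma replicate 1 but at -0.60 to 0.08 in the others.

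Markers of retinal cell types moved with the same contrast, and their part in the result was not tested. Among all tested genes, 8.65% were called lower and 8.04% higher, with a median of -0.01. Bipolar markers were lower in 5 of 6 genes (median -2.55), amacrine and horizontal cell markers in 7 of 8 (-1.60), ganglion cell markers in 9 of 13 (-1.46, with 1 higher) and cone markers in 4 of 11 (-1.20). The higher ganglion cell marker was SNCG, by 2.52 with its brightest probe set, whereas the paper lists SNCG as decreased with another probe set. Microglia and macrophage markers were higher in 11 of 13 genes (median 2.03). Müller glia markers were higher in 4 of 13 and lower in 1 (median 0.42). Rod markers were lower in 0 of 17 with limma, at a median of -0.61. At an unadjusted p under 0.05, 1 rod marker was lower, against 17.0% of all tested genes. The pigment epithelium markers were higher in 1 of 13, SERPINF1 (median 0.65). In glaucoma replicates 1 to 5, rod markers deviated by -2.89, 0.08, -0.02, -0.06 and -0.60 at the median, and bipolar markers by -2.17, -2.11, -1.31, -2.32 and -3.82. The oxidative phosphorylation genes were lowest in replicates 1 and 5, which were also the lowest for rod markers. The same 2 retinas were lowest for cone markers (-2.04 and -2.31, against -1.10 to -0.30 in the others). They were also lowest for amacrine and horizontal cell markers (-2.2 and -2.1), with replicate 4 close at -2.0. For bipolar and ganglion cell markers, replicates 4 and 5 were lowest. Without glaucoma replicate 1 and control replicate 4, which were picked for omission once their values were known, 4 of 70 members (5.71%) were called, against 7.17% of all genes, so that no excess of calls remained, and the members' median was -0.21.

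The integrity of the RNA was judged by how much brighter control probe sets for actin and GAPDH were at the 3' than at the 5' end. Whether it differed between the groups depended on the control probe sets used. With 1 choice, the log2 ratio averaged 0.94 ± 0.14 over glaucomatous and 1.19 ± 0.22 over control retinas, the higher 3' excess being in the controls (SD, n = 5 per group, exact permutation test, two-sided p = 0.0556). In glaucoma replicates 1 and 5 this ratio was 0.84 and 0.78, the lowest of all retinas. With it as a covariate in limma, 0 members were called, against 2.52% of all genes, and 21 were lower at an unadjusted p under 0.05, against 9.66% of all genes, with a median of -0.22. Other control probe sets for the same transcripts gave 1.42 ± 0.22 and 1.40 ± 0.19 (SD, n = 5 each; exact permutation test, two-sided p = 0.873), and 20 members (28.6%, against 10% of all genes) were called with that ratio in the model. Which control probe sets to use was settled after values had been seen, so neither count is preferred. With age as a covariate 5 were called (7.14%, against 4.35% of all genes). Since all controls were of the same age, that slope rested on the glaucoma dogs, for 2 of which the sources disagree on age.

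Several genes were measured by more than 1 probe set, and these agreed in direction more often than in call. Of 39 genes with several tested probe sets, 35 had a lower mean in glaucoma with every one, 3 were called with all, 10 with some and 26 with none. In total, 28 of 125 tested member probe sets were lower and 0 higher, against 9.4% lower and 7.58% higher among all tested probe sets, and 23 genes had at least 1 called probe set. UQCR11, a small subunit of complex III, disagreed most. Its probe set with the highest mean differed by 0.01 (adjusted p = 0.972 in limma), whereas 1 of the other 5 fell by 0.63 (adjusted p = 0.0432 in limma). NDUFC1, NDUFB5 and NDUFB6 were likewise called only with a dimmer probe set, at -0.53, -0.47 and -0.44.

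**Figure D4:**
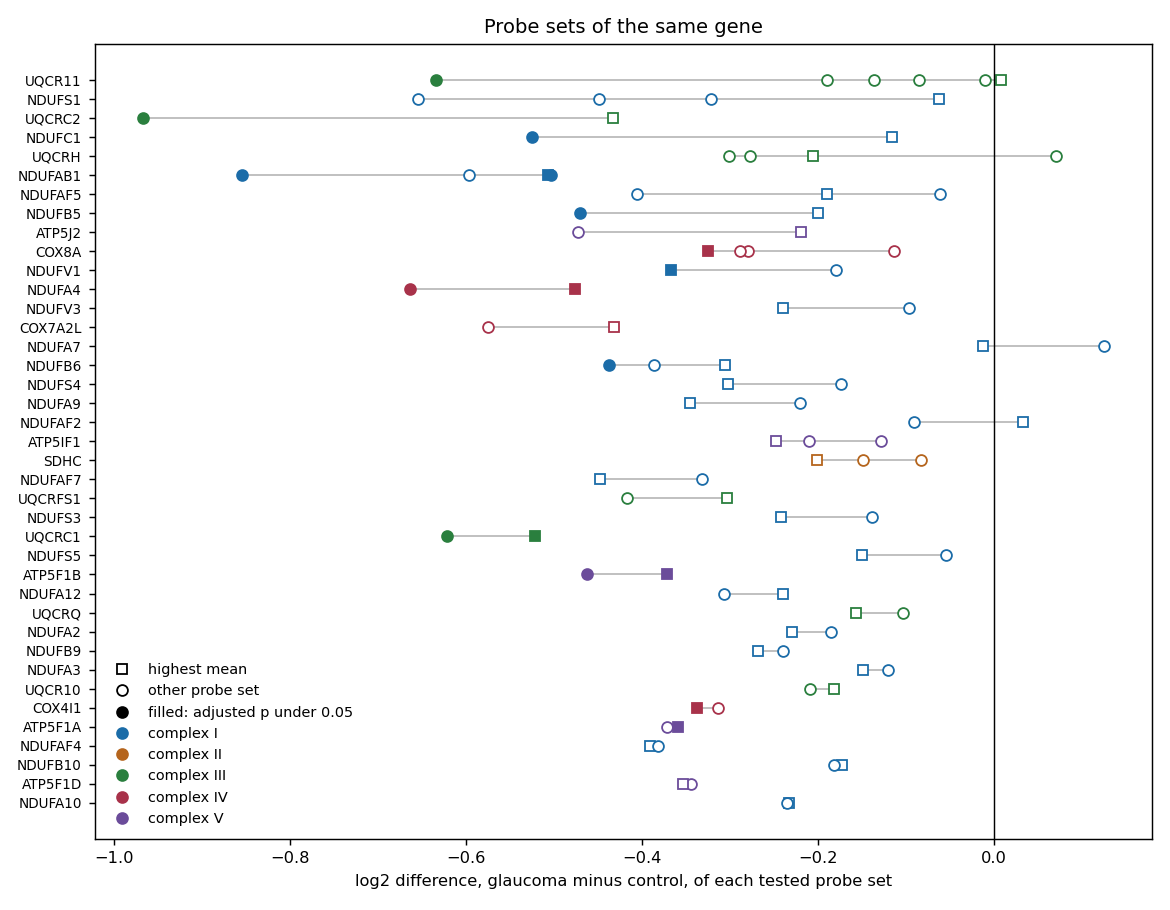
Log2 difference, glaucoma minus control, of every tested probe set of the 39 genes that had more than 1, with squares for the probe set of highest mean that stands for the gene and filled symbols at an adjusted p under 0.05. In 35 of the 39 genes all symbols lie left of 0, and the widest spread is that of UQCR11, from -0.63 to 0.01.

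Genes that build, feed or serve the same machinery were taken from lists drawn up for mitochondrial function. For comparison, 8.65% of all tested genes were called lower and 8.04% higher, with a median of -0.01. Of 31 tested assembly factors other than those with NDUF symbols, 6 (19.4%) were lower and 0 higher, with a median of -0.26. They were HIGD1A (-0.87, adjusted p = 0.00666 in limma), which supports complex IV and supercomplexes, SDHAF4 (-0.96, adjusted p = 0.0143 in limma), which matures SDHA, and COX20, TTC19, UQCC1 and COX11. LYRM7, a factor for complex III, did not pass at -0.49.

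The list of pyruvate dehydrogenase and tricarboxylic acid cycle genes had 5 of 15 lower (33.3%, against 8.65% of all tested genes) and 0 higher. Its median was -0.18. The former enzyme feeds acetyl-CoA to the cycle, which supplies NADH and succinate. IDH3A, a subunit of isocitrate dehydrogenase, fell by 0.75 (adjusted p = 0.00172 in limma) and SUCLA2, of succinyl-CoA synthetase, by 0.70 (adjusted p = 0.00569 in limma), and the other called genes were IDH3B, of the cycle, and PDHX and PDHA1, of pyruvate dehydrogenase. DLD, shared by several dehydrogenase complexes, did not pass at -0.43. Among carriers of metabolites and electrons, 5 of 18 (27.8%) were lower and 0 higher, with a median of -0.29. VDAC1, the outer membrane channel, fell by 0.54 (adjusted p = 0.00558 in limma) and CYCS, cytochrome c itself, by 0.62 (adjusted p = 0.0284 in limma), and COQ10A, COQ10B and the phosphate carrier SLC25A3 completed the count. The citrate carrier SLC25A1 had a difference of 0.64 that did not pass (adjusted p = 0.0985 in limma).

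Lists for mitochondrial upkeep gave few calls, against 8.65% lower and 8.04% higher among all tested genes. Of 26 import and chaperone genes, 0 were lower or higher at an adjusted p under 0.05 in limma (median -0.13), and of 13 regulators of mitochondrial biogenesis also 0 (median -0.12). At an unadjusted p under 0.05 in limma, 3 import and chaperone genes were lower, and of the regulators 2 were lower and 1 was higher. At that threshold, 17.0% of all tested genes were lower and 15.2% higher, so these counts show no excess of lower genes. TFAM, which packages and transcribes mitochondrial DNA, differed by -0.60 (adjusted p = 0.168 in limma), POLRMT by -0.28 (adjusted p = 0.0803 in limma) and the coactivator PPARGC1A by 0.14 (adjusted p = 0.63 in limma). TIMM8B, of the import machinery, differed by -0.46 without passing. Of 13 genes for fusion, fission and mitophagy, MFF alone was lower, by 0.61, and its partner DNM1L did not pass at -0.41. Of 7 antioxidant enzymes of the mitochondrion, SOD2, the manganese superoxide dismutase, was higher, by 0.96 (adjusted p = 0.0407 in limma), and PRDX3 did not pass at -0.45.

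Glycolysis, the alternative source of ATP, had 5 of 15 genes lower (33.3%, against 8.65% of all tested genes) and 0 higher. Its median was -0.26, near that of oxidative phosphorylation. TPI1 fell by 0.68 (adjusted p = 0.00392 in limma) and PGK1 by 0.74 (adjusted p = 0.00893 in limma), and ALDOA, ALDOC and PFKL were also called. ENO2, the neuronal enolase, had the largest difference, -1.04, and did not pass (adjusted p = 0.0709 in limma). Per retina, the glycolysis list deviated by -0.68 in glaucoma replicate 1 and by -0.34 to -0.02 in the others.

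**Figure D5:**
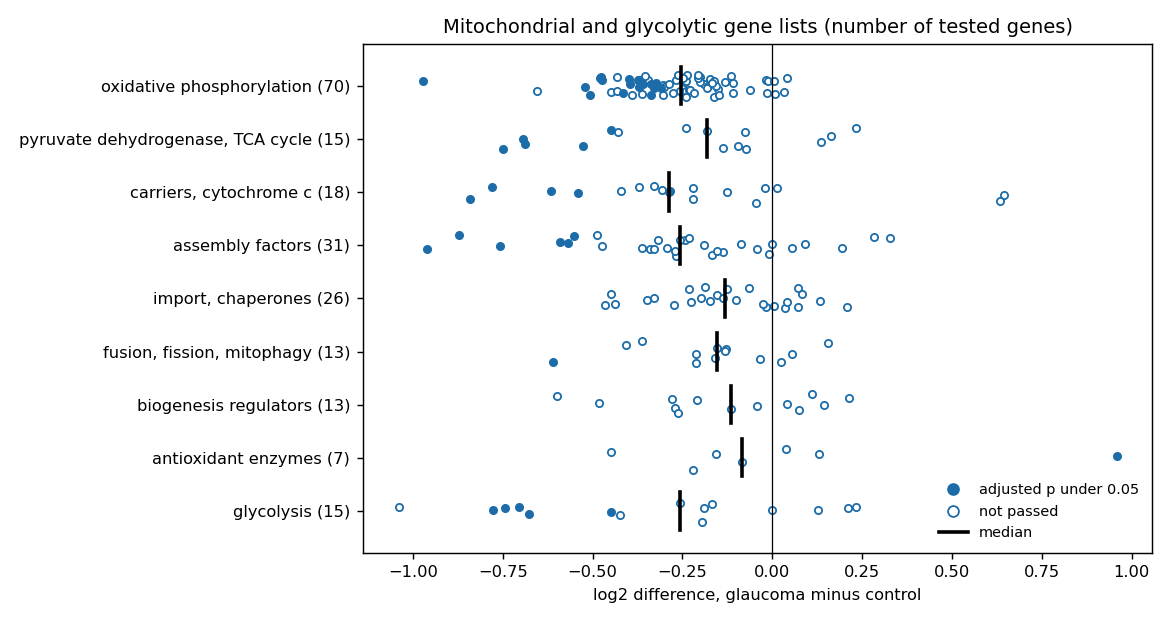
Log2 difference, glaucoma minus control, of every tested gene of the oxidative phosphorylation family and of 8 further lists, with filled points at an adjusted p under 0.05 and a black bar at each median; the vertical scatter within a list has no meaning. All medians lie between -0.29 and -0.08, and SOD2, among the antioxidant enzymes, is the filled point to the right of 0.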

How the data were processed

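The authors normalized the arrays with RMA, and they deposited linear intensities, from 1 array per dog with no pooling; log2 was taken here. The annotation gives 29254 probe sets a single symbol and 439 several; 5 with several symbols of which 1 fits the family were left out. Of 71 member symbols, 69 were found in RefSeq by gene ID and none differed. Probe sets were tested if log2 exceeded 7 in at least 2 samples (18416 of 42924), the filter of the study's methods, with limma 3.58.1 in R 4.3.3, two-sided, on 5 against 5 samples without covariates. P-values were adjusted by Benjamini-Hochberg over all tested probe sets, and calls were made at 0.05 without a minimum fold. The brightest tested probe set, by its mean over all samples, stood for a gene, and levels were not compared between probe sets. Summaries used Python 3.11.15 with pandas 2.3.3.

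Genes were named if they had the 3 smallest adjusted p of their complex in each direction, the 2 largest differences of it that did not pass, probe sets of opposite sign with a call, a tissue-restricted isoform or its counterpart, or complex II membership, and per further list the 2 smallest adjusted p and the largest difference that did not pass. The remaining named genes were chosen after their values were seen. The members and lists were chosen with earlier results of these data known. The SAM procedure of the study's methods was not rerun. Arrays have no read depth, and their number limits the precision. The fit was tested on simulated data.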

Additional observations from a re-analysis of the deposited data

Results flagged for a closer look

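In 74 groups of 5 values, those of the named members and of the medians by complex, the highest or lowest sample was compared with the others by Dixon's ratio at its 95% critical value, 0.71 for 5 samples, which chance exceeds in about 1 of 20 groups. It was exceeded in 3. NDUFA4L2 was 8.59 in control replicate 5, against 7.82 to 8.02 in the other controls. COX5B was 11.99 in control replicate 3, against 12.25 to 12.26 in the other controls. The median deviation of complex II was 0.00 in glaucoma replicate 4, against -0.21 to -0.15 in the other glaucomatous retinas.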

How the results depend on the processing

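The median difference of the family kept its direction under every alternative, from -0.31 without the Basset Hounds to -0.21 with array weights, whereas the 18 calls did not hold up as well. Fewer members were lower with the exact Wilcoxon rank sum test (0, since its smallest exact p of 0.00794 became 0.0536 after adjustment, with 38 members at an unadjusted p under 0.05, against 13.7% of all genes), with the 3' to 5' ratio as a covariate (0, against 2.52%), with age (5, or 7.14%, against 4.35%), without the Shiba Inus (9, or 12.9%, against 7.81% of all genes), with only probe sets without a suffix (9 of 37, or 24.3%, against 9.04%), without the 2 retinas richest in pigment epithelium RNA (4, or 5.71%, against 7.17%) and with a 2-fold minimum (0). Repeated quantile normalization gave 13 members (18.6%, against 8.23% of all genes) and centring the arrays on their median 14 (20.0%, against 8.29%). More were lower with the trend and robust options of limma (24, or 34.3%, against 8.92%) and with array weights (25, or 35.7%, against 13.8%). The counts of member probe sets and list genes that follow are given without the share called in the same fit. The share of all genes called lower ran from 0.0% with the Wilcoxon test to 13.8% with array weights. By themselves these counts therefore do not show a gain or loss against all genes. Member probe sets called, 28 in the report, were 0 with the Wilcoxon test, 1 with the ratio and 9 with age. They were 15 without the Shiba Inus, 9 without the 2 retinas and 0 with the 2-fold minimum. The lists of further genes, with 22 lower and 1 higher, gave 0 and 0 with the Wilcoxon test, 2 and 0 with the ratio, 9 lower with age, 13 and 0 without the 2 retinas and 0 and 0 with the 2-fold minimum. They gave 34 lower and 4 higher with array weights, 4 higher with the other ratio, 2 higher with quantile normalization and 0 higher without the filter or with unsuffixed probe sets. With unsuffixed probe sets complex II was represented by SDHC alone, at -0.20, so that no median of the complex can be given. Leaving out each sample in turn gave 5 to 20 members, 11 to 31 member probe sets, and 10 to 30 lower and 0 to 2 higher list genes. The replicate numbers do not pair the dogs, since deviations of same-numbered samples correlated at -0.24 to 0.07 across genes; the replicate block left 3 members (4.29%, against 5.37% of all genes), 8 member probe sets and 8 lower list genes. Reversals met only genes that had not passed. COX7A1 was 0.015 after quantile normalization, 0.002 after centring, 0.003 with age and 0.17 without the Basset Hounds, and -0.107 to 0.055 with each sample left out. SDHB was -0.018 with array weights and -0.11 with the ratio (leave-one-out -0.039 to 0.088). SDHD was -0.012 with array weights, -0.13 with the ratio and -0.18 without the Basset Hounds (leave-one-out -0.12 to 0.10). UQCR11 was -0.17 as a mean of probe sets and -0.14 unsuffixed (leave-one-out -0.058 to 0.056). NDUFAF7 was 0.01 with age, and PPARGC1A was -0.016 without the 2 retinas. The causes were not tested.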
